A study of Mus musculus with 12 samples.

Results

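Macrophages of the liver were followed through 37 marker genes, which were chosen by name as markers of Kupffer cells and of recruited macrophages and looked up by symbol among the 55401 genes of the count table. The tissue was liver of 12 female mice aged 15 weeks. Of these, 6 (iTgMir483) carried a transgene in Rosa26 under Tet-off control, which transcribes the microRNA gene Mir483 in the absence of doxycycline, and 6 were littermates (Control). All 12 came from a cross between transgenic males and females that carried Cre under the CMV promoter, on a C57BL/6J background, and doxycycline was given in the drinking water through pregnancy and then withdrawn, so that Mir483 was transcribed from birth. CMV-Cre acts in all tissues, so the transgene was not restricted to hepatocytes or to macrophages, and both groups shared the Cre parent and the doxycycline. Each library was made from the liver of 1 animal, and p-values measure the spread between these animals.

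Kupffer cells are the resident macrophages of the liver. They line the sinusoids, clear particles, dying cells and ageing red cells from portal blood, and carry receptors that few other macrophages have, such as the lectin Clec4f. When Kupffer cells are lost or the liver is injured, blood monocytes enter, express general myeloid genes such as Adgre1 (the F4/80 antigen) and Itgam (CD11b), and may take on Kupffer markers with time. In fatty liver, macrophages with high Trem2, Gpnmb, Cd9 and Lgals3 gather around lipid-laden hepatocytes and are called lipid-associated macrophages. The question put to the data was whether the resident markers and the pan-myeloid and lipid-associated markers moved together. In whole liver, fewer cells of a type and less RNA per cell cannot be told apart.

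Values are CPM, the read count of a gene scaled to a common library size after TMM normalisation. Library totals were 12244123 to 30431286 counts for controls and 12415140 to 15846175 for iTgMir483. Mir483 had 0 counts in every control library and 318 to 761 in the iTgMir483 libraries. The 37 markers together took 0.0636% to 0.0908% of the counts of a control liver and 0.108% to 0.255% of those of an iTgMir483 liver. Genes were called changed at an adjusted p under 0.05 in edgeR's quasi-likelihood test over all 13205 genes tested, with a fold change over 1.5.

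Replicate 4 of the iTgMir483 group stood apart from the rest of its group. It had the highest level of its group in 32 of the 37 markers, and iTgMir483 replicate 3 had the lowest in 22. In controls, replicate 3 was highest in 18 markers and replicate 6 lowest in 24. The median coefficient of variation over the markers was 17.5% in controls, 38.4% in iTgMir483 livers and 18.1% in iTgMir483 livers without replicate 4. Counts of calls over the markers and over each group of markers are therefore also given without this library. Over all genes, both replicate 1 libraries stood apart as well. The chi-square per gene against the other libraries of its group was 83.6 to 100.3 for Control replicate 1, against 22.2 to 37.8 among the other 5 controls. For iTgMir483 replicate 1 it was 78.2 to 108 and for replicate 4 it was 104 to 153, against 15.7 to 45.9 among the other 4. Without both replicate 1 libraries 28 markers rose and 1 fell.

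Mir483 encodes 2 mature microRNAs, shown here with their seeds (bases 2 to 8) in capitals because matches to them were looked for in the markers. Sequences are from RefSeq (GRCm38.p6, chromosome 7, minus strand, 142654932 to 142654952 for miR-483-3p and 142654968 to 142654989 for miR-483-5p).
miR-483-3p: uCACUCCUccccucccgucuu
miR-483-5p: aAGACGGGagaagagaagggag

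Most macrophage markers were higher in iTgMir483 liver. Of the 37, 36 passed the filter on low counts, and 28 of these 36 (77.8%) were changed, against 11.1% of all genes tested. The changed markers comprised 27 that rose (8.41% of all genes tested rose) and 1 that fell (2.73% of all genes tested fell), the haemoglobin scavenger receptor Cd163. The median log2 fold change of the tested markers was 0.94, whereas the median of all genes tested was 0.01. In 16 markers every iTgMir483 liver lay above every control liver, which held for 5.09% of all genes tested, and in 1 marker, Cd163, every iTgMir483 liver lay below, which held for 2.83%. Without iTgMir483 replicate 4, 20 markers rose, Cd163 fell and the median was 0.68. The 7 calls lost without it were C1qa, Cd68, Fcgr1 and Ptprc, whose fold changes then came under 1.5, and Itgax, Cd44 and Aif1, whose adjusted p rose above the threshold. The filter asked for a CPM cut-off to be reached in 6 libraries, which Itgam reached in 1 control, Itgax in 4 and Trem2 in 4, and each in all 6 iTgMir483 livers. These 3 markers thus passed only through the group in which they were high. With at least 10 counts required in every library they were not tested, and 26 of the remaining 33 rose and 1 fell.

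**Figure D1:**
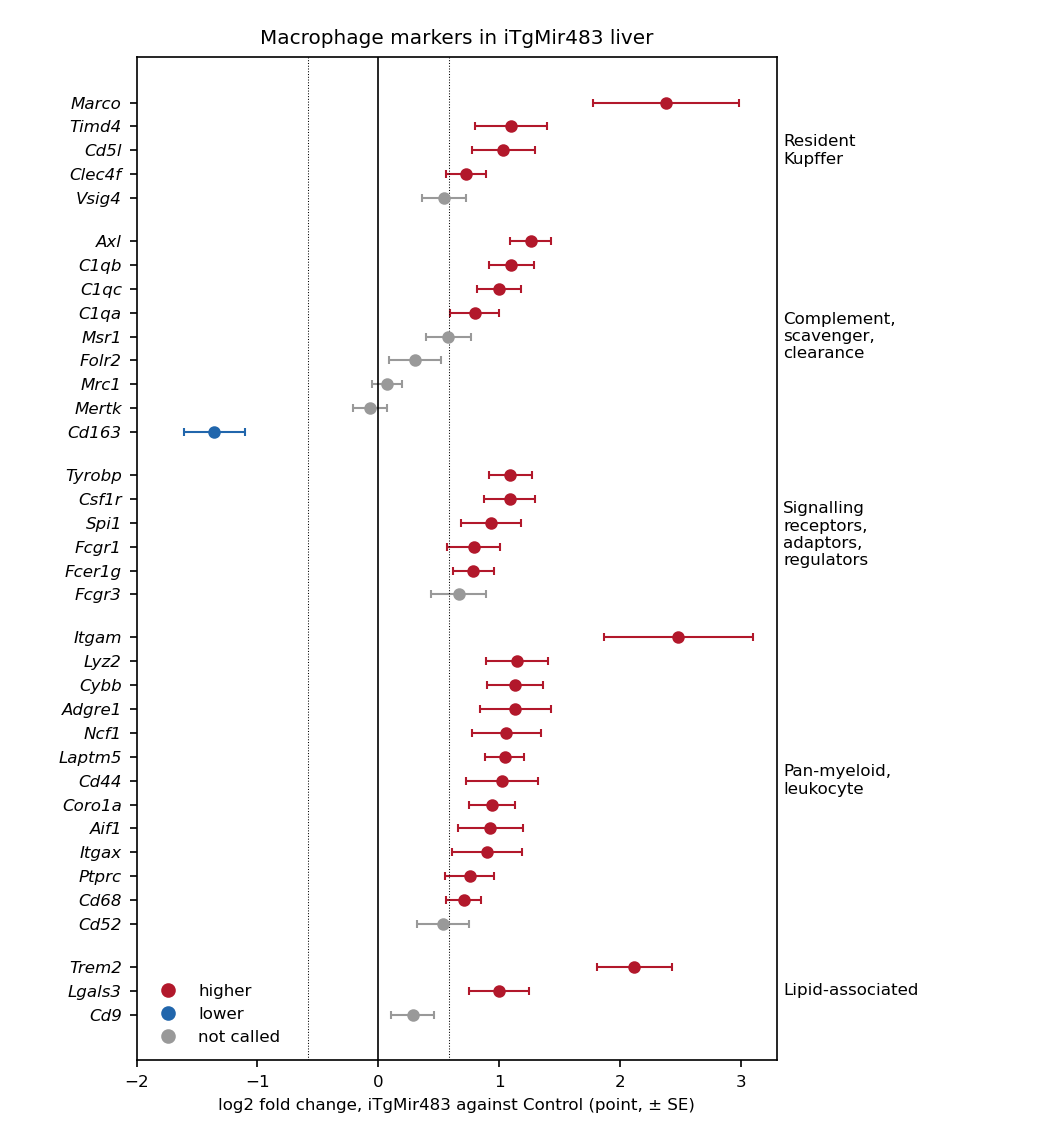
Log2 fold change of the 36 tested macrophage markers in iTgMir483 against Control liver (horizontal axis; points are estimates, bars are SE, n = 6 and 6), grouped by role and coloured by whether the gene was called higher, lower or not called, with dotted lines at a fold change of 1.5 in either direction. Nearly all points lie to the right of 0, Itgam, Marco and Trem2 lie farthest right, and Cd163 at -1.36 is the only called point to the left.

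The 5 resident Kupffer markers had a median log2 fold change of 1.03, and 4 of them rose. Without iTgMir483 replicate 4 the same 4 were called and the median was 0.65, and under limma-voom 2 were called, Clec4f and Cd5l. Their levels in control liver, per length of transcript, were far apart. Cd5l was the most abundant of the 37 at 47.8 CPM per kb and Clec4f was close to it at 43.3, while Marco was at 5.86 and Timd4 at 3.76 CPM per kb. All 12 libraries carried resident macrophage transcripts.

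Clec4f (chromosome 6, 83644542 to 83656187, GRCm38) encodes a C-type lectin made almost only by Kupffer cells in the mouse. The control livers, from replicate 1 to 6, gave 113, 83.3, 145, 101, 119.9 and 80.1 CPM, and the iTgMir483 livers gave 177, 162, 149, 247, 184 and 142 CPM. Control replicate 3 reached into the lower end of the iTgMir483 range, and the other 5 controls lay below it. Clec4f rose by 0.72 on the log2 scale (SE 0.164, adjusted p = 0.00814), and by 0.60 without iTgMir483 replicate 4 (adjusted p = 0.0147).

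Cd5l (chromosome 3, 87357881 to 87371073) encodes a secreted protein of tissue macrophages, also called AIM, that binds lipids and damaged cell material. Its levels were 100.1, 98.6, 108, 93.7, 100.3 and 82.5 CPM in control livers and 142, 179.7, 114, 434, 154 and 171 CPM in iTgMir483 livers, with no overlap, and replicate 4 at more than the other 5 iTgMir483 livers. It rose by 1.03 on the log2 scale (SE 0.261, adjusted p = 0.0140), or by 0.65 without that library (adjusted p = 0.00339). Timd4 (chromosome 11, 46810800 to 46844332), a phosphatidylserine receptor for dying cells that marks long-lived resident macrophages, gave 8.22, 7.25, 9.69, 9.68, 8.64 and 5.49 CPM in controls and 16.4, 11.5, 7.02, 33.9, 13.7 and 23.4 CPM in iTgMir483 livers. Only iTgMir483 replicate 3 lay within the control range. Timd4 rose by 1.10 (SE 0.299, adjusted p = 0.0202).

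Marco (chromosome 1, 120474538 to 120505024), a scavenger receptor for bacteria and particles, was the resident marker with the widest spread. Control livers were narrowly grouped at 9.41, 12.7, 11.5, 11.6, 10.4 and 11.98 CPM, whereas iTgMir483 livers gave 10.6, 16.3, 12.9, 125, 35.2 and 154 CPM. Replicates 4 and 6 were far above the controls, replicate 5 was above them by less, replicates 2 and 3 lay just above the highest control, and replicate 1 was inside the control range. The means were 11.3 ± 1.17 CPM in controls and 59.0 ± 63.6 CPM in iTgMir483 livers (SD, n = 6 each), an estimated log2 change of 2.38 (SE 0.604, adjusted p = 0.0143). It was 2.01 without replicate 4 and 1.82 without replicate 6, and under limma-voom it was 1.58 with an adjusted p of 0.0988, so that this call depended on the test. With the replicate number as a block the value was 1.62 (adjusted p = 0.0463).

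Vsig4 (chromosome X, 96247203 to 96293438), the complement receptor CRIg, was the resident marker that did not pass. Its levels were 36.2, 28.2, 42.04, 34.2, 44.3 and 29.5 CPM in controls and 45.6, 53.6, 34.8, 83.3, 53.6 and 41.9 CPM in iTgMir483 livers, and replicates 3 and 6 of the iTgMir483 group lay inside the control range. Its estimate of 0.54 (SE 0.184) had an adjusted p of 0.0527, and it passed in 3 of 19 alternatives, those that left out Control replicate 5 or iTgMir483 replicate 3 or 6.

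**Figure D2:**
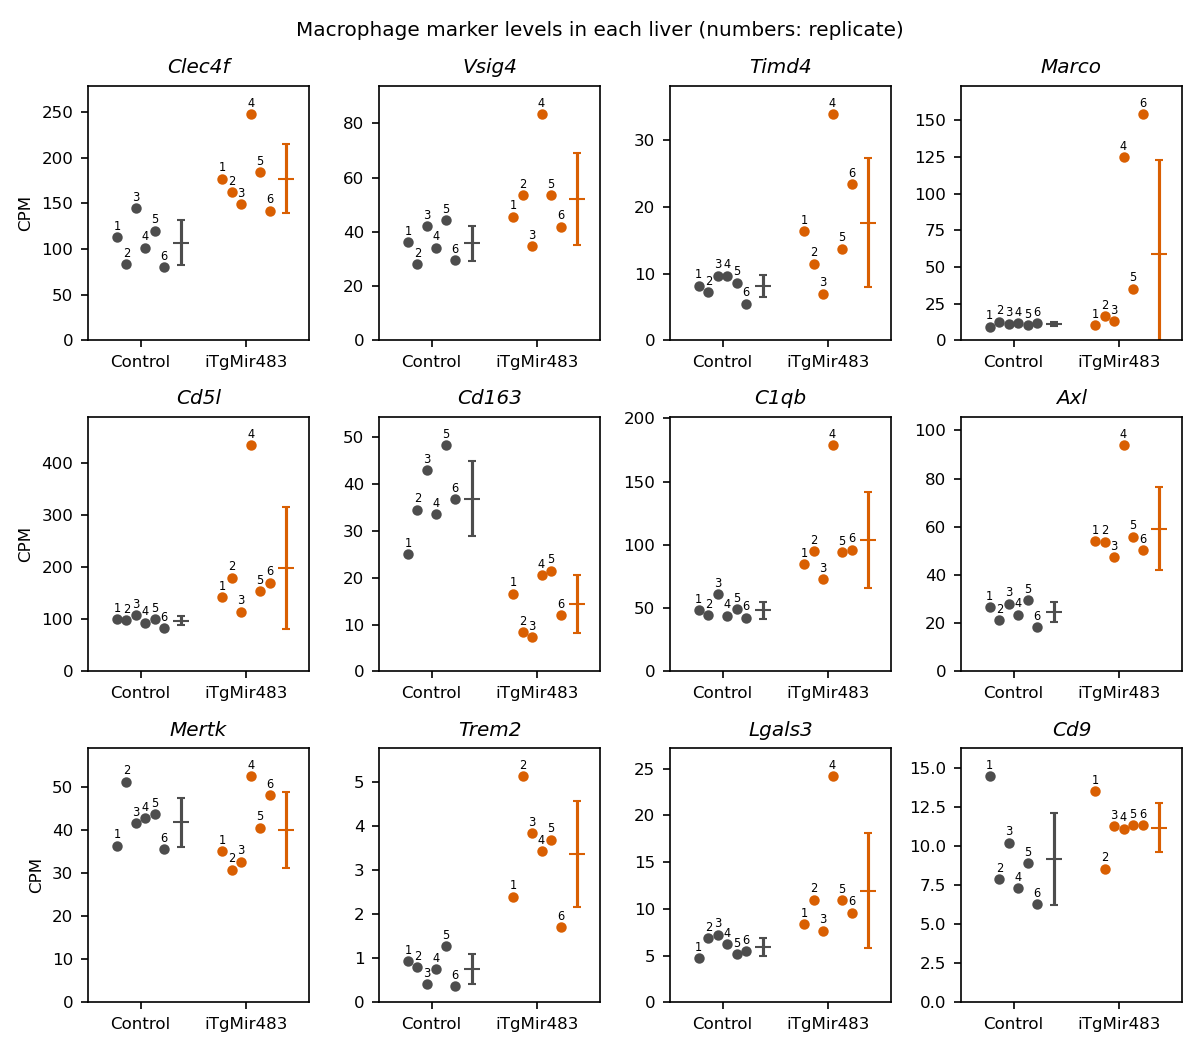
CPM of 12 macrophage markers in each liver (vertical axis, linear from 0), with Control livers in grey and iTgMir483 livers in orange; small numbers give the replicate, and the bars beside the points give mean ± SD (n = 6 each; the bar of Marco is cut at 0). Replicate 4 of iTgMir483 is the highest point of most panels, Cd163 is lower in all 6 iTgMir483 livers, and Trem2, C1qb, Axl, Cd5l and Lgals3 do not overlap between groups.

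Of the 4 lipid-associated markers, 3 could be tested and 2 rose. Trem2 (chromosome 17, 48346401 to 48354147) encodes a receptor for lipids and cell debris that signals through Tyrobp. Counts of Trem2 were 15, 14, 6, 22, 19 and 4 in controls and 33, 72, 64, 47, 59 and 22 in iTgMir483 livers, or 0.941, 0.805, 0.418, 0.752, 1.27 and 0.366 CPM and 2.40, 5.14, 3.84, 3.44, 3.70 and 1.70 CPM. The groups did not overlap, and replicate 2, not replicate 4, was highest. Trem2 rose by 2.12 (SE 0.311, adjusted p = 0.000762), a 4.35-fold increase that was as large without replicate 4 (2.12, adjusted p = 0.00130). At 0.681 CPM per kb in iTgMir483 livers its level stayed among the lowest of the 37 markers, in position 34.

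Lgals3 (chromosome 14, 47367751 to 47386160), the galactoside-binding lectin galectin-3, gave 4.77, 6.84, 7.25, 6.22, 5.16 and 5.49 CPM in controls and 8.37, 10.99, 7.68, 24.2, 10.96 and 9.60 CPM in iTgMir483 livers, again without overlap. It rose by 1.0 (SE 0.25, adjusted p = 0.0135), or by 0.67 without replicate 4 (adjusted p = 0.00800). Cd9 (chromosome 6, 125460266 to 125494791), a tetraspanin that many cell types express, gave 14.5, 7.88, 10.2, 7.32, 8.91 and 6.31 CPM in controls and 13.5, 8.56, 11.3, 11.1, 11.3 and 11.4 CPM in iTgMir483 livers. Control replicate 1 was the highest of all 12, and the difference of 0.29 (SE 0.180, adjusted p = 0.290) did not pass. Without that library it was 0.46 with an adjusted p of 0.0400, under the fold threshold.

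Gpnmb (chromosome 6, 49036546 to 49070929), a transmembrane glycoprotein of lysosome-rich macrophages, did not pass the filter. Its counts were 4, 8, 4, 7, 12 and 3 in controls and 0, 5, 5, 7, 4 and 15 in iTgMir483 livers. A count of 0 in iTgMir483 replicate 1 allows up to 0.218 CPM (3 counts of that library, counting error only), and no difference in Gpnmb was detectable at this depth. The called resident and lipid-associated markers thus moved the same way in iTgMir483 liver, with Trem2 tested only through the group in which it was high. Each group had a member, Vsig4 and Cd9, that did not pass, and Gpnmb stayed near the detection limit.

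Complement proteins, scavenger receptors and receptors for dying cells spanned log2 fold changes from -1.36 to 1.26, the widest range of the 5 groups, with 4 rising, 1 falling and 4 not called among 9. The median of their log2 fold changes was 0.58. Without iTgMir483 replicate 4, 3 rose, 1 fell and the median was 0.42. C1qa, C1qb and C1qc encode the chains of C1q, the recognition protein of the classical complement pathway, which macrophages secrete. They are neighbours on the minus strand of chromosome 4, between 136880129 and 136898803.

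C1qb levels were 48.5, 44.5, 61.00, 44.1, 49.1 and 42.4 CPM in controls and 84.7, 95.1, 73.1, 179, 94.05 and 96.3 CPM in iTgMir483 livers. C1qc levels were 46.2, 40.3, 51.9, 42.98, 44.3 and 39.8 CPM in controls and 73.4, 79.6, 62.1, 152, 76.6 and 86.3 CPM in iTgMir483 livers. For both, every iTgMir483 liver exceeded every control, and they rose by 1.10 (SE 0.185, adjusted p = 0.00163) and 1.0 (SE 0.180, adjusted p = 0.00249). C1qa gave 41.3, 37.8, 54.3, 38.4, 43.2 and 35.8 CPM in controls and 56.1, 60.9, 52.3, 132, 61.3 and 73.5 CPM in iTgMir483 livers, where only replicate 3 fell below the highest control, and it rose by 0.80 (SE 0.203, adjusted p = 0.0145). Without replicate 4 the C1qa value was 0.54, under the fold threshold. Within a liver, C1qb counts per 100 C1qa counts were 112 to 118 in controls against 131 to 156 in iTgMir483 livers. C1qc counts per 100 C1qa counts were 95.6 to 112 against 115 to 131. Neither ratio overlapped between groups.

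Cd163 (chromosome 6, 124304656 to 124330527) takes up haemoglobin bound to haptoglobin and is made by resident macrophages. It was the sole marker that fell. Counts of 400, 601, 617, 984, 721 and 402 in controls stood against 228, 117, 121, 281, 343 and 156 in iTgMir483 livers, or 25.1, 34.6, 43.01, 33.6, 48.3 and 36.8 CPM against 16.6, 8.35, 7.26, 20.6, 21.5 and 12.1 CPM. The highest iTgMir483 liver was below the lowest control. Cd163 fell by 1.36 on the log2 scale (SE 0.253, adjusted p = 0.00292), from 36.9 ± 8.03 to 14.4 ± 6.11 CPM (SD, n = 6 each). It fell in all 19 alternatives, and by 1.49 without iTgMir483 replicate 4 (adjusted p = 0.00248), the library in which most other markers were highest. Per 100 Clec4f counts of the same liver, Cd163 counts were 22.3 to 45.9 in controls against 4.87 to 11.7 in iTgMir483 livers.

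The receptor tyrosine kinases Axl and Mertk both bind Gas6 on dying cells. Axl rose, and Mertk was not called. Axl (chromosome 7, 25757273 to 25788705) gave 26.8, 21.3, 28.2, 23.6, 29.7 and 18.5 CPM in controls and 53.9, 53.8, 47.3, 93.8, 55.9 and 50.3 CPM in iTgMir483 livers, with no overlap. It rose by 1.26 (SE 0.169, adjusted p = 0.000421). Mertk (chromosome 2, 128698956 to 128802894) was at 41.9 ± 5.69 CPM in controls and 40.01 ± 8.79 CPM in iTgMir483 livers, and its estimate of -0.07 (SE 0.138, adjusted p = 0.769) lay within the spread between livers. Mertk counts per 100 Axl counts were 136 to 241 in controls against 56.0 to 95.8 in iTgMir483 livers.

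The mannose receptor Mrc1, which sinusoidal endothelium also makes, was at 59.3 ± 6.22 CPM in controls and 62.5 ± 12.6 CPM in iTgMir483 livers (log2 fold change 0.08, SE 0.124, adjusted p = 0.709). Its sign turned without iTgMir483 replicate 4. The folate receptor Folr2 was at 10.3 ± 2.77 and 12.8 ± 4.24 CPM (0.30, SE 0.218, adjusted p = 0.351). The scavenger receptor Msr1 was at 10.4 ± 1.56 and 15.6 ± 4.95 CPM, with an adjusted p of 0.0424 and an estimate of 0.58 (SE 0.186), just under the fold threshold.

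**Figure D3:**
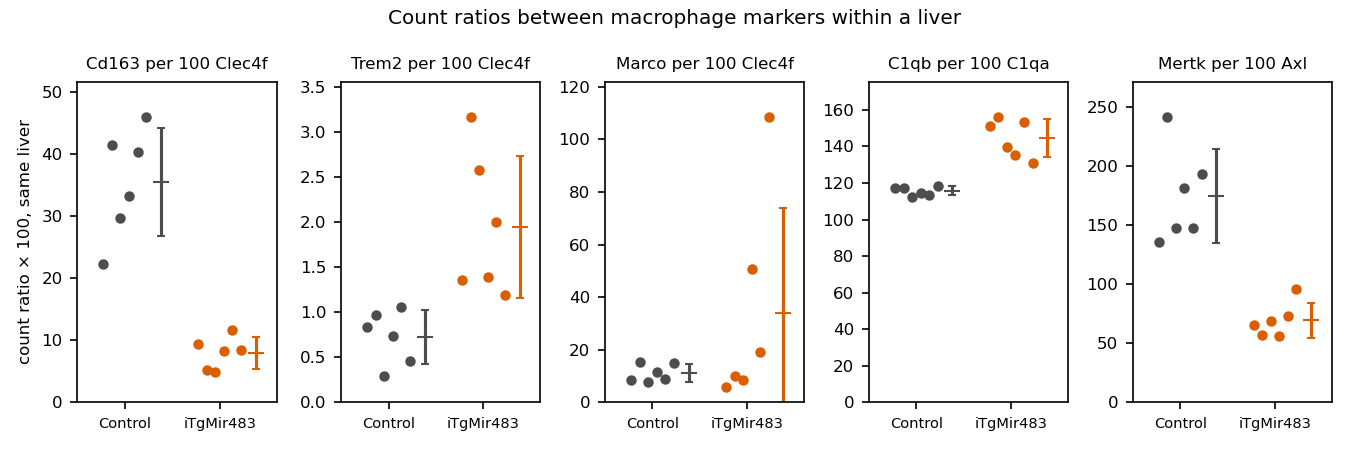
Ratios of read counts between pairs of macrophage markers in the same liver, times 100 (vertical axes, linear from 0), for 6 Control (grey) and 6 iTgMir483 (orange) livers, with mean ± SD beside the points (the bar of Marco is cut at 0). Cd163 per Clec4f and Mertk per Axl are lower and Trem2 per Clec4f and C1qb per C1qa are higher in every iTgMir483 liver, whereas Marco per Clec4f overlaps.

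The ratios were chosen after the values had been seen and are given without a test. Trem2 counts per 100 Clec4f counts were 0.288 to 1.06 in controls against 1.20 to 3.17 in iTgMir483 livers. Marco counts per 100 Clec4f counts were 7.93 to 15.3 against 6.01 to 108. Clec4f counts per 100 counts of Cd68, a lysosomal protein of all macrophages, were 768 to 1541 against 1026 to 1221, so that the resident marker kept its ratio to the general marker within the control range. Per 100 Adgre1 counts, Clec4f counts were 596 to 810 in controls against 337 to 829 in iTgMir483 livers, with the lowest value in replicate 4. These ratios do not depend on the library scaling.

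The 6 signalling receptors, adaptors and regulators had a median log2 fold change of 0.86, and 5 rose. The median was 0.65 and 4 rose without iTgMir483 replicate 4. Csf1r, the receptor for the growth factors CSF1 and IL-34 on which Kupffer cells depend, gave 51.8, 55.6, 70.2, 62.9, 66.2 and 54.4 CPM in controls and 99.7, 94.4, 85.4, 234, 124 and 129 CPM in iTgMir483 livers, without overlap. It rose by 1.09 (SE 0.210, adjusted p = 0.00358). Tyrobp (DAP12), the membrane adaptor of Trem2 and other activating receptors, gave 14.4, 14.5, 18.1, 13.5, 11.7 and 11.6 CPM and 23.6, 30.8, 22.2, 48.1, 27.1 and 27.3 CPM, also without overlap, and rose by 1.09 (SE 0.178, adjusted p = 0.00138). Both remained called without iTgMir483 replicate 4, at 0.82 and 0.91.

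Fcgr1, the high-affinity receptor for IgG, gave 3.01, 2.59, 3.07, 2.97, 3.48 and 2.19 CPM in controls and 3.86, 4.85, 3.78, 8.79, 3.82 and 5.03 CPM in iTgMir483 livers, without overlap, and rose by 0.79 (SE 0.216, adjusted p = 0.0211). Fcer1g, the signalling chain that it shares with other Fc receptors, gave 6.96, 7.59, 11.2, 8.48, 8.50 and 6.86 CPM and 12.6, 13.6, 10.2, 21.5, 13.5 and 14.4 CPM, and iTgMir483 replicate 3 alone lay below the highest control. Fcer1g rose by 0.79 (SE 0.171, adjusted p = 0.00657). Fcgr3, a low-affinity IgG receptor, was at 10.8 ± 2.59 and 17.2 ± 6.60 CPM and did not pass (0.66, SE 0.225, adjusted p = 0.0528). It passed in 6 of 19 alternatives, DESeq2 among them (adjusted p = 0.0295). Spi1, the gene of PU.1, a transcription factor required for the myeloid lineage, rose by 0.93 (SE 0.245, adjusted p = 0.0172), from 4.99 ± 0.846 to 9.60 ± 4.39 CPM.

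Pan-myeloid and leukocyte markers had a median log2 fold change of 1.02, and 12 of the 13 rose. Without iTgMir483 replicate 4, 7 of the 13 rose and the median was 0.75, and Cd68, Ptprc, Itgax, Cd44 and Aif1 lost their calls. Adgre1 (chromosome 17, 57358691 to 57483527), an adhesion receptor of mouse macrophages, gave 14.8, 10.8, 17.99, 15.1, 14.8 and 13.4 CPM in controls and 21.3, 20.3, 20.6, 73.4, 24.00 and 31.4 CPM in iTgMir483 livers. The lowest iTgMir483 liver was above the highest control, and replicate 4 was above the other 5 by a wide margin. Adgre1 rose by 1.13 (SE 0.293, adjusted p = 0.0158), or by 0.70 without replicate 4 (adjusted p = 0.00571).

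The lysosomal proteins Cd68 and Laptm5 also separated the groups. Cd68 gave 9.85, 9.03, 9.41, 9.47, 10.1 and 10.4 CPM in controls and 14.5, 15.6, 12.4, 24.1, 16.04 and 12.5 CPM in iTgMir483 livers, and rose by 0.71 (SE 0.148, adjusted p = 0.00544). Laptm5 gave 15.00, 14.7, 18.96, 15.9, 17.7 and 13.99 CPM and 27.7, 31.3, 26.1, 52.8, 34.1 and 27.2 CPM, and rose by 1.05 (SE 0.161, adjusted p = 0.00109). The controls were tightly grouped for Cd68, between 9.03 and 10.4 CPM.

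Cybb and Ncf1 encode subunits of the phagocyte NADPH oxidase, the membrane-bound gp91phox and the cytosolic p47phox. Cybb gave 17.1, 12.9, 16.7, 16.4, 16.9 and 10.5 CPM in controls and 27.1, 24.4, 21.2, 62.6, 31.95 and 32.3 CPM in iTgMir483 livers, and rose by 1.13 (SE 0.230, adjusted p = 0.00463). Ncf1 gave 3.51, 5.41, 6.69, 4.14, 5.02 and 4.21 CPM and 6.77, 6.99, 6.72, 21.7, 9.90 and 8.44 CPM, and rose by 1.06 (SE 0.285, adjusted p = 0.0192). In Ncf1 the gap between the groups was narrow, with the highest control at 6.69 CPM and the lowest iTgMir483 liver at 6.72 CPM.

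Lyz2, the lysozyme of macrophages and neutrophils, gave 50.6, 46.5, 63.02, 54.6, 59.8 and 36.9 CPM in controls and 78.8, 92.3, 63.3, 219.9, 100.1 and 137 CPM in iTgMir483 livers. Coro1a, an actin-binding protein of leukocytes, gave 6.46, 7.36, 6.83, 5.40, 5.36 and 4.94 CPM and 10.9, 12.2, 8.58, 19.1, 8.46 and 10.8 CPM. Neither overlapped, although iTgMir483 replicate 3 was next to the highest control for Lyz2, and they rose by 1.15 (SE 0.253, adjusted p = 0.00701) and 0.94 (SE 0.192, adjusted p = 0.00470).

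Itgam, the integrin chain CD11b of monocytes, neutrophils and some macrophages, rose by 2.48 (SE 0.614, adjusted p = 0.0128), on the lowest control level of any tested marker. Its counts were 0, 6, 10, 10, 11 and 4 in controls and 8, 17, 18, 78, 24 and 50 in iTgMir483 livers. The count of 0 in Control replicate 1 allows up to 0.188 CPM. Replicates 4 and 6 of iTgMir483 were the highest, replicate 1 lay within the control range, and the value without replicate 4 was 1.99 (adjusted p = 0.0276). Itgax (CD11c) of dendritic cells and some macrophages rose by 0.90 (SE 0.288, adjusted p = 0.0424), from 1.02 ± 0.449 to 1.93 ± 0.500 CPM, and lost its call in 11 of the 18 alternatives in which it was tested.

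Cd44, the hyaluronan receptor, rose by 1.02 (SE 0.301, adjusted p = 0.0293), from 8.61 ± 1.94 to 17.6 ± 9.51 CPM, and lost its call in 6 alternatives. Aif1 (IBA1), an actin-binding protein of macrophages, rose by 0.93 (SE 0.272, adjusted p = 0.0286), from 3.44 ± 1.08 to 6.59 ± 2.79 CPM, and lost its call in 5. Ptprc (CD45), the phosphatase of all leukocytes, rose by 0.76 (SE 0.203, adjusted p = 0.0192), from 10.02 ± 1.06 to 17.0 ± 6.62 CPM. Cd52, a small surface glycoprotein of lymphocytes and myeloid cells, was at 5.05 ± 1.42 and 7.35 ± 2.10 CPM and did not pass (0.54, SE 0.214, adjusted p = 0.0931).

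Averaged over the members of a group on the log2(CPM + 1) scale and set against the control mean, the resident markers of the iTgMir483 livers stood at 0.51, 0.61, 0.15, 1.98, 0.87 and 1.32 for replicates 1 to 6. Pan-myeloid markers stood at 0.45, 0.67, 0.39, 1.66, 0.74 and 0.92. Lipid-associated markers stood at 0.38, 0.64, 0.51, 0.92, 0.61 and 0.56. In the highest control these means reached 0.23, 0.25 and 0.16, so that the pan-myeloid and lipid-associated means did not overlap between groups, while the resident mean of iTgMir483 replicate 3 fell among the controls. These averages describe the chosen members and carry no test. The lipid-associated mean includes Gpnmb, which was not tested, and Trem2, both at low CPM. Adding 1 to the CPM shrinks differences in such genes, so height and spread are not comparable between marker groups.

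**Figure D4:**
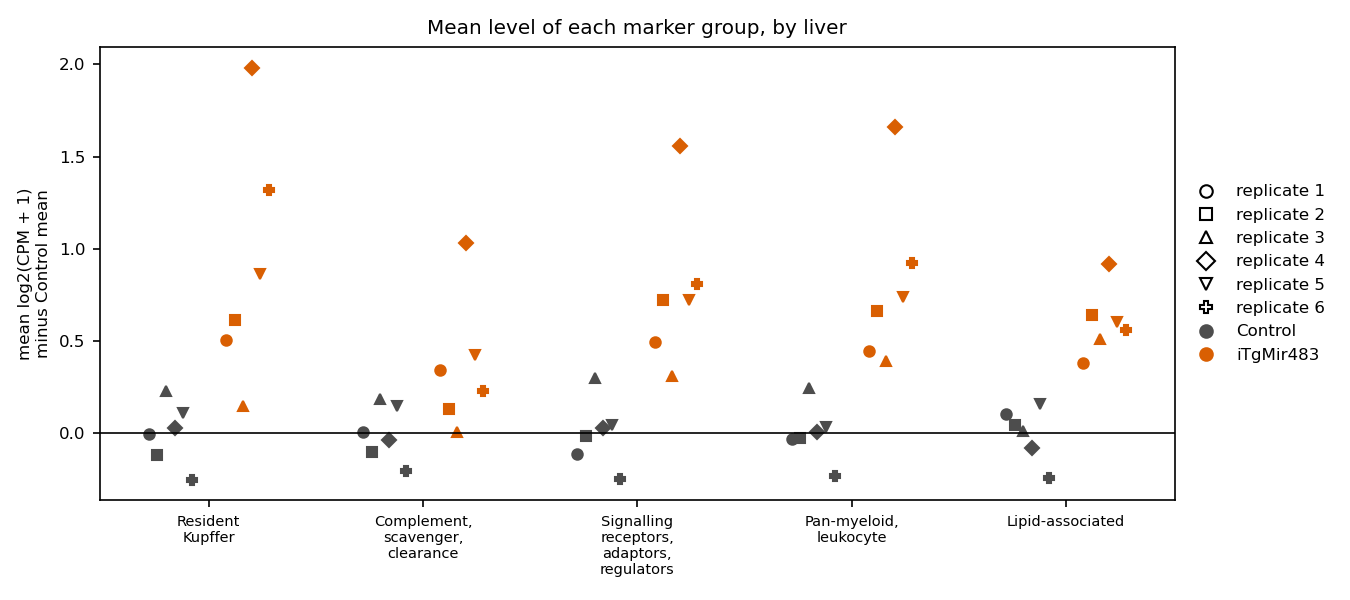
Mean log2(CPM + 1) over the members of each of the 5 marker groups, minus the mean of the 6 Control livers (vertical axis), with 1 point per liver, grey for Control and orange for iTgMir483, and a shape for each replicate. Replicate 4 of iTgMir483 is the highest in every group, at 1.98 for the resident markers and 0.92 for the lipid-associated markers, and replicate 3 is low for the resident markers at 0.15. The lipid-associated mean includes Gpnmb, which was not tested, and heights are not comparable between marker groups.

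Further genes of macrophages and of other cells were read from lists written from general knowledge of these cells. Among 12 growth factors, receptors and transcription factors of macrophages, 11 were tested and 4 rose. Csf1, the macrophage growth factor, rose by 0.70 (SE 0.152, adjusted p = 0.00645), from 10.6 ± 1.52 to 17.2 ± 4.25 CPM, whereas Il34, the other ligand of Csf1r, was at 3.56 ± 0.734 and 2.95 ± 1.41 CPM (-0.27, adjusted p = 0.533). Csf2ra and Csf2rb, which form the GM-CSF receptor, rose by 1.33 (SE 0.206, adjusted p = 0.00110) and 1.46 (SE 0.229, adjusted p = 0.00115). The ligand Csf2 had at most 1 count in any liver. Spic, a PU.1-related factor that haem induces in iron-handling macrophages, rose by 1.83 (SE 0.383, adjusted p = 0.00532), from 1.51 ± 0.534 to 5.49 ± 3.07 CPM. Nr1h3 (LXRα) and Id3, which Kupffer cells need, were at 0.15 (adjusted p = 0.340) and 0.20 (adjusted p = 0.643). Without iTgMir483 replicate 4, Csf2ra, Csf2rb and Spic were still called higher, Csf1 was not called, and Cebpb was called lower.

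Of 7 other Kupffer cell genes, all tested, 3 rose. Hmox1, the haem oxygenase, rose by 1.15 (SE 0.243, adjusted p = 0.00556), from 22.5 ± 3.98 to 50.1 ± 23.1 CPM, Slc11a1, a metal transporter of phagosomes, by 1.19 (SE 0.205, adjusted p = 0.00195) and Il18bp, an inhibitor of IL-18, by 0.85 (SE 0.224, adjusted p = 0.0174). These 3 were also called without iTgMir483 replicate 4. The iron exporter Slc40a1 was at 170 ± 34.1 and 155 ± 20.3 CPM (-0.13, adjusted p = 0.538). The lectins Fcna and Cd207 were at -0.18 (adjusted p = 0.460) and -0.37 (adjusted p = 0.234). Hmox1 and Spic were thus higher in the group in which Cd163, the uptake receptor for haemoglobin, was lower.

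Of 12 further genes of lipid-associated macrophages, 11 were tested and 4 rose, but hepatocytes, cholangiocytes or other cells also express several of them. Spp1 (osteopontin) rose by 1.31 (SE 0.181, adjusted p = 0.000517), Lipa, the lysosomal acid lipase, by 0.67 (SE 0.0958, adjusted p = 0.000688), the tetraspanin Cd63 by 0.99 (SE 0.204, adjusted p = 0.00488) and the lipoprotein lipase Lpl by 1.49 (SE 0.316, adjusted p = 0.00587). Plin2, the coat protein of lipid droplets, was at -0.03 (adjusted p = 0.934), and Fabp5 at 1.13 with a wide spread (SE 0.416, adjusted p = 0.0713). Mmp12 was too low to test, at no more than 12 counts in a liver.

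Most markers of blood monocytes were near the detection limit. Of 8, 3 were tested and 0 were called by edgeR's quasi-likelihood test, by DESeq2 or by limma-voom, with 1 (Ccr2) at an unadjusted p under 0.05. Ly6c2 had at most 16 counts in a liver and Ccr2 at most 25, and Ccr2, the receptor that draws monocytes into tissue, was at 1.08 ± 0.291 and 0.713 ± 0.151 CPM (-0.59, SE 0.244, adjusted p = 0.108). Plac8 was higher in level, with up to 187 counts in a liver. It was at 4.87 ± 1.49 and 7.13 ± 3.31 CPM and was not called (0.54, SE 0.267, adjusted p = 0.170). Chil3, which was not tested, was at 0.0620 ± 0.105 and 0.920 ± 0.570 CPM, with at most 23 counts. The summed levels of the list were 5.21 to 11.3 CPM in controls against 9.06 to 21.4 CPM in iTgMir483 livers, with the highest in replicate 4 and the rest at or under 11.2. Plac8 gave 13.7 CPM of the sum in iTgMir483 replicate 4.

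Neutrophil genes were also higher in iTgMir483 liver. Of 10, 3 were tested, and these rose, namely S100a8 by 2.32 (SE 0.362, adjusted p = 0.00112), S100a9 by 2.67 (SE 0.473, adjusted p = 0.00229) and Csf3r, the G-CSF receptor, by 1.48 (SE 0.25, adjusted p = 0.00165). Sums over the list were 3.58 to 6.27 CPM in controls against 7.68 to 31.7 CPM in iTgMir483 livers, with the highest in replicate 4 (31.7 CPM) and replicate 1 (30.6 CPM), whose pan-myeloid mean, given above, was next to the lowest of its group, while the defining surface marker Ly6g had at most 2 counts in a liver. Neutrophils also express Itgam, Cybb, Ncf1, Lyz2, Coro1a, Ptprc, Tyrobp and Fcer1g. S100a8 reached the filter cut-off in 0 controls and S100a9 in 3, and both in all 6 iTgMir483 livers, so that their place among the tested genes rested on the group in which they were high. The 3 genes were still called without iTgMir483 replicate 4. The part of neutrophils in the rise of these markers was not tested.

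Lists of other leukocytes and of the stromal cells of the liver held few tested genes, and their calls are read beside the 11.1% of all genes tested. Of T and NK cell genes, 1 of 2 tested (Cd4, by 0.96) rose, and of B and plasma cell genes 2 of 6 (Cd22 by 0.87 and Ighm by 0.77). The call of Cd22 was lost without iTgMir483 replicate 4. By edgeR's quasi-likelihood test, DESeq2 and limma-voom, 0 of 2 dendritic cell genes, 0 of 8 sinusoidal endothelial genes and 0 of 7 stellate cell genes were called, at medians of 0.06, -0.12 and 0.27. An unadjusted p under 0.05 was reached by 0, 2 (Fcgr2b and Pecam1) and 2 (Reln and Hgf) of them. Pecam1 (0.42, SE 0.119, adjusted p = 0.0239) and Hgf (0.57, SE 0.120, adjusted p = 0.00556) also passed the adjusted p threshold. They were not called because their fold changes were under 1.5. Fcgr2b, a relative of Fcgr3 that endothelium expresses, was at -0.31 (adjusted p = 0.115). Bile duct genes Krt7 and Epcam rose by 1.34 and 1.41 among 5 tested, and of 4 proliferation genes Mki67 rose by 1.31. Cd4 and Krt7 reached the filter cut-off in 3 controls and Epcam in 5, so that these too passed through the iTgMir483 livers. Of the 4 red cell or platelet genes tested, 0 were called by the 3 tools and 0 had an unadjusted p under 0.05.

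Among 7 hepatocyte genes, Fgb rose by 1.01 and Cps1 fell by 1.21. Their summed levels, mostly albumin, were 120170 to 168590 CPM in controls against 66957 to 136869 CPM in iTgMir483 livers, with 70147 CPM in replicate 4. Among iTgMir483 livers the sum was lowest in replicate 1, next in replicate 4 and highest in replicate 6. Their means over all markers, on the log2(CPM + 1) scale against the control mean, were 0.43, 1.45 and 0.75. In 4 of the 6 iTgMir483 livers, replicate 4 among them, the sum was below every control, and its part in the rise of the macrophage markers was not tested. The ratios between macrophage markers given above do not depend on the library scaling, but the cells that gave their reads were not identified.

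Matches to the miR-483-3p seed (AGGAGTG, positions 2 to 8) in annotated 3′ untranslated regions were found in 5 of the 37 markers (13.5%) and in 1522 of 12098 tested genes with such a region (12.6%). The 5 were Cd163, which fell, Lgals3 and Csf1r, which rose, Mertk, which was not called, and Gpnmb, which was not tested. The sites of 4 are printed with the match in capitals (plus strand, GRCm38; Cd163 chromosome 6, 124330389 to 124330395; Mertk chromosome 2, 128802715 to 128802721; Gpnmb chromosome 6, 49057187 to 49057193; Lgals3 chromosome 14, 47385720 to 47385726). They show the site of the marker that fell beside sites of markers that rose, were not called or were not tested.
Cd163: gggcgtgagagtAGGAGTGaggactgattg
Mertk: ggacagcacctgAGGAGTGatatttgatgc
Gpnmb: ggcctctcagccAGGAGTGtttggcaatgt
Lgals3: cctgtgtgccttAGGAGTGggaaactttgc
Matches to the miR-483-5p seed (CCCGTCT) were in Laptm5 and C1qa, 2 of 37 (5.41%), against 394 of the 12098 genes (3.26%), and both of these markers rose. The regions searched had a median length of 519 bases in the markers and 1164 bases in the tested genes. A match is a description of the sequence, and binding was not measured.

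Promoters were read for a core motif of PU.1-type factors, since Spi1 and Spic were both higher. The letters GAGGAAG, or CTTCCTC on the other strand, were in the 300 bases around the start of 11 of the 30 markers that had a promoter window (36.7%) and in 15.4% of all 27025 genes with a window. The shorter core GAGGAA, or TTCCTC, was in 17 of the 30 (56.7%) and in 31.3% of all genes. The longer form GAGGAAGT, or ACTTCCTC, which contains both, was in 1 marker, C1qc (3.33%), and in 3.69% of all genes. The 11 were Axl, C1qc, Cd44, Cd5l, Fcgr1, Fcgr3, Itgam, Laptm5, Marco, Mrc1 and Trem2, which include Mrc1 and Fcgr3, not called. Windows are shown for Marco, Trem2 and C1qc, which rose, and Cd163, which fell, each from 250 bases before the start to 50 after it, with the motif in capitals (RefSeq, GRCm38.p6; Marco chromosome 1, 120504975 to 120505274, minus strand; Trem2 chromosome 17, 48346151 to 48346450, plus strand; C1qc chromosome 4, 136892865 to 136893164, minus strand; Cd163 chromosome 6, 124304401 to 124304700, plus strand).
Marco: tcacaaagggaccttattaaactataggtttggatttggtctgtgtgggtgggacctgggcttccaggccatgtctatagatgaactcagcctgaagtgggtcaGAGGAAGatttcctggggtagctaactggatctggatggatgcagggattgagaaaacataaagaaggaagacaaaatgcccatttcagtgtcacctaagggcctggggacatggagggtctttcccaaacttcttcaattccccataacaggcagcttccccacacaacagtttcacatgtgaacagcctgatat
Trem2: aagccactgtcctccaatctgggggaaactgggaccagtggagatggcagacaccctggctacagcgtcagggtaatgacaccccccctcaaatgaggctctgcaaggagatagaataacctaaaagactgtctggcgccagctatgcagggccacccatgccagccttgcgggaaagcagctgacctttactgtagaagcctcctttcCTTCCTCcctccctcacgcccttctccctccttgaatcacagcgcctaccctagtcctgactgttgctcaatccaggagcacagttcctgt
C1qc: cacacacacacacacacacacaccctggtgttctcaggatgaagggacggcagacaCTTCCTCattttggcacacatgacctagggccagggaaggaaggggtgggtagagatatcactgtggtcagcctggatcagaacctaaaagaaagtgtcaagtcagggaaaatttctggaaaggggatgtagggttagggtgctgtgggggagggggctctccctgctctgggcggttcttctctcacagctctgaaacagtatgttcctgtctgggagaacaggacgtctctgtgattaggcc
Cd163: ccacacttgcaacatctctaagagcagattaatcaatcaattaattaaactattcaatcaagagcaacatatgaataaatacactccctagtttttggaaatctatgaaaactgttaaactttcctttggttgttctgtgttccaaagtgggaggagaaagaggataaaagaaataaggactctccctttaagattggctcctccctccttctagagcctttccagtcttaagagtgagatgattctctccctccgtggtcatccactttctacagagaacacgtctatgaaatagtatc
The motif begins 146 bases before the start in Marco, 194 in C1qc and 41 in Trem2. In the window of Cd163 these letters are not present. They are also absent from the windows of Clec4f, Timd4, C1qb, Cd68, Lyz2, Itgax, Lgals3, Fcer1g, Aif1, Ptprc, Cybb, Ncf1 and Coro1a, which rose. The motif and the windows were chosen after the values had been seen, and factor binding was not measured. The markers were chosen as macrophage genes, so their shares compare such genes with all genes. The shares do not bear on whether a marker changed in these livers, and a part of Spi1 or Spic was not tested.

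Counting limits touch a few markers. Csf1r, Ncf1, Cd52 and Coro1a overlap a protein-coding gene on the other strand (Hmgxb3, Gtf2ird2, Crybg2 and Bola2), and Folr2 overlaps the antisense gene Gm10602. The strand setting of the counting is not given in the sources used here, so reads of these pairs may not be fully separated. Itgam overlaps the protein-coding gene Gm49368 on the same strand, which had 0 counts in every library. Lyz2 and Fcgr3 have close relatives (Lyz1 and Fcgr2b or Fcgr4) with which reads may be shared.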

How the data were processed

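RNA-seq was done on livers of 6 iTgMir483 and 6 Control females at 15 weeks, 1 library per animal, and groups were taken from the sample titles. The deposited values are raw counts per gene: per the labels and the study's methods, the authors prepared poly(A) libraries from total RNA, aligned paired reads to GRCm38 with STAR and counted them on Ensembl genes. Poly(A) libraries do not measure mature microRNAs, and the reads carry no molecular identifiers, so floors cover counting error only.

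All 55401 rows of the table named a gene (0 did not), and 0 of its columns lacked a sample. Symbols (55141 genes) and positions came from GENCODE M21 (GRCm38). Libraries of a group differed beyond sampling noise (smallest chi-square per gene 15.7), so each counted as 1 replicate. After filterByExpr and TMM scaling, 13205 genes were compared by edgeR's quasi-likelihood F-test without covariates (edgeR 4.0.16, limma 3.58.1, R 4.3.3) with Benjamini-Hochberg adjustment over all of them. Adjusted p-values in the report are from this test unless another is named. Changed meant a fold change over 1.5 at an adjusted p under 0.05. Standard errors were taken as the absolute log2 fold change over the square root of F. Alternatives were RLE size factors, no count filter, at least 10 counts in every library, DESeq2 1.42.0, limma-voom, the replicate number as a block, adjusted p alone, and leaving out libraries.

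The 3′ untranslated region searched was the longest among a gene's basic coding transcripts. Promoter windows and mature microRNAs came from RefSeq tables (GRCm38.p6), which held a window for 30 of 37 markers. The named genes were all 37 markers, in 5 groups by role, with values in every liver for the resident and lipid-associated groups, for markers that did not overlap between groups and for markers with a liver far from its group, and at most 4 called genes, those with the smallest p, from each further list, with members discussed by name. The markers and lists were chosen with earlier results of these data known.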

Additional observations from a re-analysis of the deposited data

Results flagged for a closer look

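Liver by liver, 17 of the 74 sets of 6 values (37 markers in 2 groups) had a highest or lowest liver whose gap to its nearest neighbour, as a share of the whole range, exceeded the 95% critical value of Dixon's test, where chance alone gives about 3.7. In 16 of the 17 the liver was iTgMir483 replicate 4, as the highest of its group. Among resident, lipid-associated and clearance markers these were, with the share in brackets, Cd5l (0.796), C1qa (0.734), C1qb (0.780), C1qc (0.732), Axl (0.815) and Lgals3 (0.799). Among signalling and pan-myeloid markers they were Adgre1 (0.790), Csf1r (0.705), Cd68 (0.690), Fcgr1 (0.750), Fcer1g (0.628), Tyrobp (0.670), Laptm5 (0.700), Cybb (0.733), Ncf1 (0.787) and Coro1a (0.646). The remaining set was C1qb in controls, where replicate 3 was highest (0.641). Markers are not independent of each other within a liver, so the 16 describe 1 animal. In this animal Cd5l reached 433.7 CPM, against 114 to 179.7 CPM in the other 5 iTgMir483 livers, and Adgre1 reached 73.4 CPM, against 20.3 to 31.4 CPM. Trem2 and Cd163 were not extreme in it, at 3.44 and 20.6 CPM.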

How the results depend on the processing

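The number of changed markers was 28, with 27 higher and 1 lower. It ran from 25 to 29 over the alternatives that kept all libraries, namely 25 under limma-voom, 27 without a filter or with at least 10 counts in every library, 28 with RLE factors, and 29 under DESeq2 or by adjusted p alone. Leaving out a single library gave 21 to 30 changed markers, 20 to 29 higher and 1 to 1 lower, and 1190 to 1653 genes in all, with the lowest marker count without iTgMir483 replicate 4. By adjusted p alone, 2457 genes of all tested were changed in place of 1470. The replicate numbers are not stated to pair the animals. Correlations of the deviations of same-numbered livers ran from 0.0146 to 0.490, the highest for replicate 1, and 4 of 6 were under 0.1. Low correlations cannot exclude a pairing. With the replicate block 28 markers were changed (27 higher, 1 lower) and 1530 genes in all, and without both replicate 1 libraries 29 markers. Of the 28, 19 kept their call in every alternative in which they were tested, which was 19 alternatives, or 18 for Itgam and Trem2, and 9 lost it in at least 1. Timd4 and Marco lost it under limma-voom alone (adjusted p = 0.0645 and 0.0988), and C1qa, Cd68, Fcgr1 and Ptprc without iTgMir483 replicate 4 alone. Itgax, Cd44 and Aif1 lost it in several. Vsig4, Msr1, Fcgr3 and Cd52 gained a call in at least 1 alternative. The sign turned once, for Mrc1 without iTgMir483 replicate 4 (-0.0179, adjusted p = 0.930, with a range of -0.0179 to 0.131 when a single library was left out). The cause of these shifts was not tested. Gpnmb was too low to test, and Itgam, Trem2 and Itgax were not tested with at least 10 counts in every library.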
